A study of Mus musculus with 6 samples.

Results

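Basic helix-loop-helix leucine zipper (bHLH-zipper) transcription factors bind E-box sequences in promoters. The genes described here encode a chosen set of those outside the MYC/MAX network. They comprise USF1 and USF2, the MiT/TFE factors TFEB, TFE3, TFEC and MITF, the sterol regulatory element-binding proteins SREBP1 and SREBP2 (genes Srebf1 and Srebf2), and MLX with its partner MondoA (gene Mlxip). Of these 10 genes, 9 were measured, among 16583 genes with 1 symbol in the deposited table, and Tfec was not analysed here. Each of the 9 was read by 1 transcript cluster, the set of probes that the array assigns to a gene. They were chosen by name, with earlier results of these data known. The comparison asked whether any related factor was more abundant when USF was depleted.

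The study used Neuro2a, a mouse neuroblastoma line, on Affymetrix Mouse Gene 1.0 ST arrays. In the USFKD group (3 arrays) the cells received vectors of the pcDNA6.2-GW/EmGFP-miR system for microRNA-based RNA interference against USF1 and USF2. In the Control group (3 arrays) they received an empty vector, and Lipofectamine 2000 was the transfection reagent of the study. With an empty vector as control, other effects of carrying an insert cannot be told apart from the loss of USF. Every USFKD array combines both targets, so the loss of either factor alone cannot be read from them. Neither the share of cells that took up a vector nor the time after transfection is stated, and fewer responding cells cannot be told apart from a smaller response per cell. The replicates are called biological, without a statement that they came from separate cultures, so a p-value here covers only variation among these samples, possibly technical.

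USF1 and USF2 bind DNA as homodimers and heterodimers and are present in most cell types. TFEB and TFE3 drive lysosomal and autophagy genes and are held in the cytoplasm by mTORC1 at the lysosome, while SREBPs are made as membrane proteins and released by cleavage when sterols are low. MLX pairs with MondoA or ChREBP, the sensors of sugar phosphates. Part of the control of TFEB, TFE3, SREBP and Mondo activity therefore acts after the mRNA is made, and arrays read only the mRNA.

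The values are log2 signals relative to the median of each gene over the 6 arrays, so groups can be compared for 1 gene but genes cannot be ranked by level. The standard deviation over all clusters was 0.159 on USFKD array 2 and between 0.0531 and 0.0780 on the other 5 arrays. That array also had the median of 229 olfactory receptor genes, normally silent outside the nose, at 0.14. The rounding of the numbers places a cluster in a dimmer class (uncentred log2 signal of 4 to 8) or a brighter one (8 to 16). Of the 9 factors, 6 were in the brighter class, and Usf1, Tfeb and Mitf were in the dimmer one. Of 14 measured neuronal and sympathetic identity genes, 10 were in the brighter class. The brighter class also held 1 of 8 melanocyte markers, 0 of 6 macrophage, 1 of 7 fibroblast, 1 of 7 endothelial and 0 of 7 glial markers. Only Dpp7, a peptidase gene, had a limma p under 0.05 after adjustment over all genes (1 gene, 0.00603%), and none of the 9 factors did. This call was lost without Control array 1, 2 or 3 or USFKD array 1 (limma adjusted p of 0.326, 0.222, 0.264 and 0.0821). Without adjustment, 266 genes (1.6%) were higher and 439 (2.65%) lower at that threshold. The total of 705 became 1248 and 1228 without USFKD array 2 or 3, and 433 and 369 without Control array 2 or 3. Of the 14 neuronal and sympathetic genes, 2 passed the same threshold without adjustment, both lower, and the median change was 0.02. They were Dbh, for the enzyme that makes noradrenaline (-0.25 ± 0.05, SE), and the secretory granule gene Chgb (-0.15 ± 0.05). With 1 array left out, the p of Dbh stayed under 0.05 in 6 of 6 fits and that of Chgb in 3. Whether these genes had a part in the other results was not tested.

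Both USF transcripts were lower in USFKD cells. Usf1 (cluster 10351616) had relative log2 signals of -0.28, -0.18 and -0.26 on USFKD arrays 1, 2 and 3, against 0.18, 0.32 and 0.43 on Control arrays 1, 2 and 3. The groups did not overlap, as for 10.3% of all genes in either direction, and the Control arrays were spread more widely than the USFKD arrays. The mean was -0.24 ± 0.05 in USFKD cells and 0.31 ± 0.12 in Control cells (SD, n = 3 each). The change was -0.55 (95% interval -0.71 to -0.39), or 0.682-fold, with an unadjusted limma p of 4.6e-05 and an adjusted p of 0.320. It was the lowest change of all 16583 genes and had the second smallest p, after Dpp7. Usf2 (cluster 10562172) had -0.22, -0.13 and -0.12 on USFKD arrays 1, 2 and 3, against 0.12, 0.28 and 0.27 on Control arrays 1, 2 and 3. Here too the groups did not overlap, and Control array 1 was the lowest of its group for both targets. The change of Usf2 was -0.38 (95% interval -0.51 to -0.24), or 0.770-fold, with an unadjusted limma p of 2.0e-04 and an adjusted p of 0.348. Of all genes, 99.9% had a smaller change in either direction than Usf2.

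The change of Usf1 was larger than that of Usf2 on the log2 scale of these arrays. Usf1 minus Usf2 was -0.06, -0.05 and -0.14 on USFKD arrays 1, 2 and 3, against 0.06, 0.05 and 0.16 on Control arrays 1, 2 and 3. The difference between the changes was -0.17, with an exact two-sided permutation p of 0.10, the smallest that 3 against 3 arrays can give. Among 4367 genes with a standard deviation of at least 0.1 over the arrays, those whose pattern was most like Usf1 were Rab31 (Pearson r = 0.992), Usf2 (0.982) and Rnf157 (0.980) over the 6 arrays. For Usf2 they were Rnf157 (Pearson r = 0.990), Rab31 (0.988) and Xpc (0.983). These correlations describe 2 groups of arrays, USFKD and Control, and are given without a p. Rab31 had a change of -0.24 ± 0.05 (SE), Rnf157 -0.24 ± 0.05 and Xpc -0.22 ± 0.05, with limma adjusted p of 0.594, 0.789 and 0.899.

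**Figure D1:**
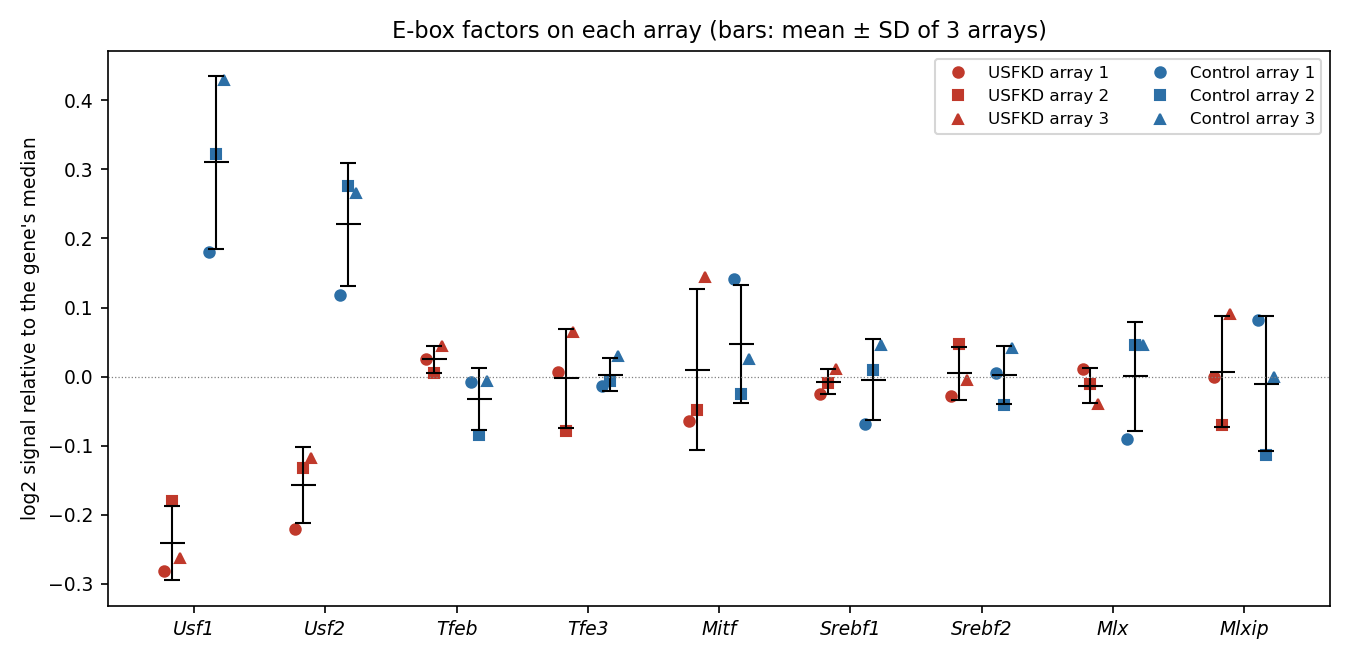
Relative log2 signal (vertical axis) of the 9 factors on each array, USFKD in red left of Control in blue, with bars for the mean ± SD of 3 arrays. Usf1 and Usf2 lie between -0.28 and -0.12 in USFKD cells and between 0.12 and 0.43 in Control cells, and the groups overlap for the other factors except Tfeb.

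None of the 7 other factors passed the test in limma, with or without adjustment. Their changes ran from -0.04 (Mitf) to 0.06 (Tfeb), 3 above 0 and 4 below, with a median of -0.0035 beside -6.6e-04 over all genes. Of the 7, 0 passed an unadjusted p of 0.05, where 4.25% of all genes did. The smallest unadjusted limma p was 0.218 and every adjusted p was at least 0.996. The upper limits of the unadjusted 95% intervals lay between 1.07-fold and 1.12-fold, and the lower limits between 0.870-fold and 0.971-fold. A larger rise or fall of any of these transcripts lies outside its interval on the scale of these arrays. For 6 of the 7 the change was smaller than that of the median gene.

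**Figure D2:**
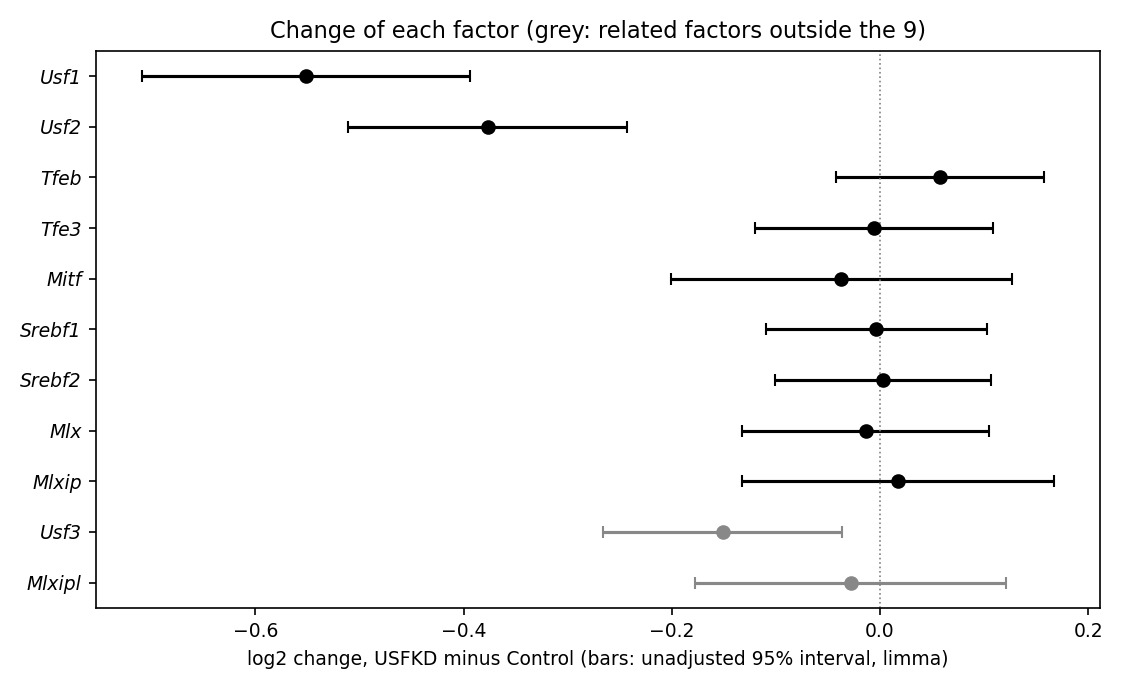
Log2 change of each factor (horizontal axis), USFKD minus Control, with unadjusted 95% intervals from limma, and in grey 2 related factors. The intervals of Usf1, Usf2 and Usf3 lie below 0, and those of the other 8 genes include 0.

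Tfeb, the best known driver of lysosomal genes, was the factor nearest to a rise. Its relative log2 signals were 0.02, 0.0059 and 0.04 on USFKD arrays 1, 2 and 3, against -0.0077, -0.08 and -0.0059 on Control arrays 1, 2 and 3. All USFKD arrays lay above all Control arrays, as they did for 4.33% of all genes, and the gap between the groups was small beside the distance of Control array 2 from the other two. The change was 0.06 (95% interval -0.04 to 0.16), or 1.04-fold, with an unadjusted limma p of 0.218. Without Control array 2 it was 0.03. Tfeb lay in the dimmer class.

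The remaining MiT/TFE factors overlapped between the groups. Tfe3, a close relative of TFEB that acts on the same lysosomal genes, had 0.0070, -0.08 and 0.06 on USFKD arrays 1, 2 and 3, against -0.01, -0.0070 and 0.03 on Control arrays 1, 2 and 3. The highest and the lowest values were both USFKD arrays, and the change was -0.0056 (95% interval -0.12 to 0.11). Mitf, the melanocyte and osteoclast member, had -0.06, -0.05 and 0.14 on USFKD arrays 1, 2 and 3, against 0.14, -0.02 and 0.02 on Control arrays 1, 2 and 3. One array in each group was high, and the change was -0.04 (95% interval -0.20 to 0.13). Mitf was in the dimmer class, and its transcripts from several promoters were read together by 1 cluster. Of 8 measured melanocyte genes that MITF drives, 0 passed an unadjusted p of 0.05, with a median change of 0.03. Without USFKD array 2 the median was -0.0352 and 1 gene was lower at that threshold, without USFKD array 3 it was 0.0632, and without Control array 3 it was -0.0125.

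The SREBP genes had the smallest changes of the 9 factors. Srebf1, whose product drives fatty acid synthesis, had -0.02, -0.0099 and 0.01 on USFKD arrays 1, 2 and 3, against -0.07, 0.0099 and 0.05 on Control arrays 1, 2 and 3. The USFKD values fell inside the Control range, and the change was -0.0035 (95% interval -0.11 to 0.10). The 1a and 1c isoforms of Srebf1 cannot be told apart in this cluster. Srebf2, whose product drives cholesterol synthesis and uptake, had -0.03, 0.05 and -0.0052 on USFKD arrays 1, 2 and 3, against 0.0052, -0.04 and 0.04 on Control arrays 1, 2 and 3. The groups were interleaved, and the change was 0.0027 (95% interval -0.10 to 0.11). A second cluster that carries Srebf2 together with 3 other symbols was left out.

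Mlx, the shared dimer partner of the Mondo proteins, had 0.01, -0.01 and -0.04 on USFKD arrays 1, 2 and 3, against -0.09, 0.05 and 0.05 on Control arrays 1, 2 and 3. The lowest value was Control array 1 and the change was -0.01 (95% interval -0.13 to 0.10). Mlxip, which encodes MondoA, had 9.0e-05, -0.07 and 0.09 on USFKD arrays 1, 2 and 3, against 0.08, -0.11 and -8.9e-05 on Control arrays 1, 2 and 3. Its groups covered nearly the same range, and the change was 0.02 (95% interval -0.13 to 0.17), with the highest upper limit of the 7 at 1.12-fold.

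The sign was not stable for 6 of the 7 factors. With 1 array left out at a time, Tfeb stayed between 0.03 and 0.07, while Tfe3 ran from -0.04 to 0.03 and Mitf from -0.10 to 0.01. Srebf1 ran from -0.04 to 0.02, Srebf2 from -0.02 to 0.02, Mlx from -0.06 to 0.0089 and Mlxip from -0.03 to 0.06. No factor outside the targets reached an unadjusted p of 0.05 in any of the 6 fits. Usf1 ran from -0.62 to -0.49 and Usf2 from -0.43 to -0.35, each at an unadjusted p under 0.05 in 6 of 6 fits. With 1 array left out, the upper limits of the 7 intervals reached at most 1.17-fold (Mlxip).

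**Figure D3:**
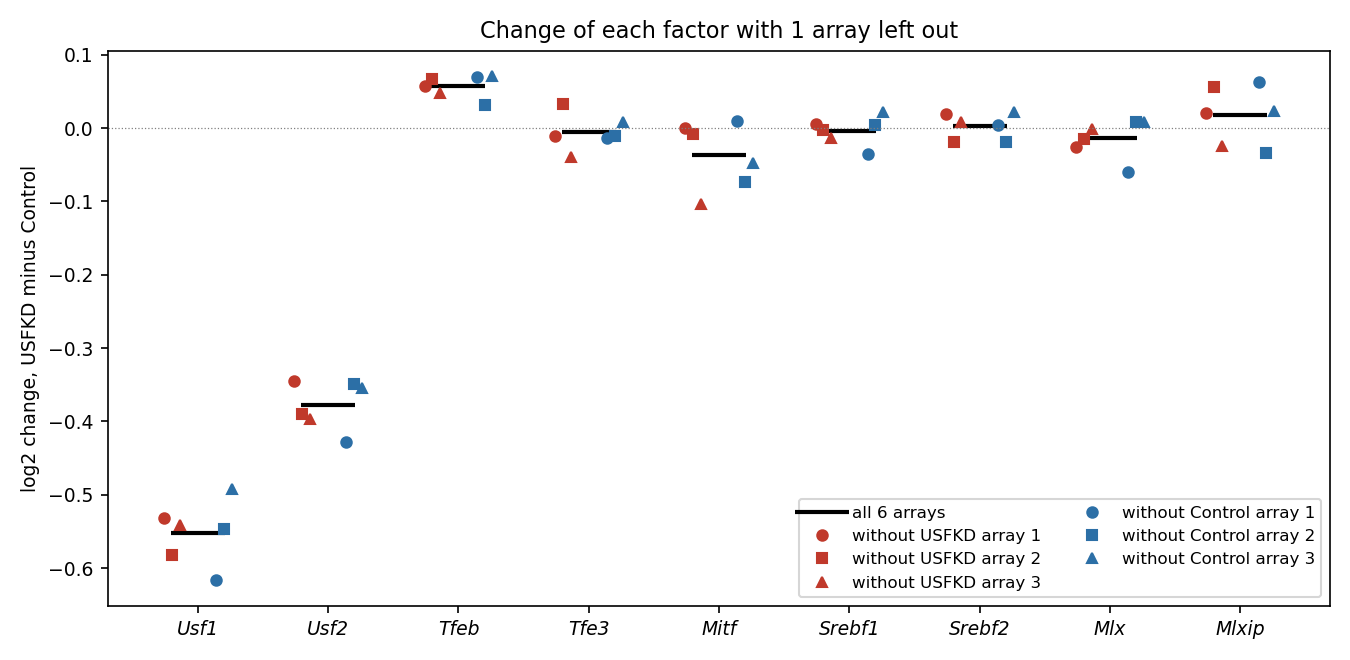
Log2 change (vertical axis), USFKD minus Control, of each factor with all 6 arrays (black line) and without 1 USFKD array (red) or 1 Control array (blue). Usf1 and Usf2 stay at or below -0.345, Tfeb stays above 0, and the other 6 factors have points on both sides of 0.

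**Figure D4:**
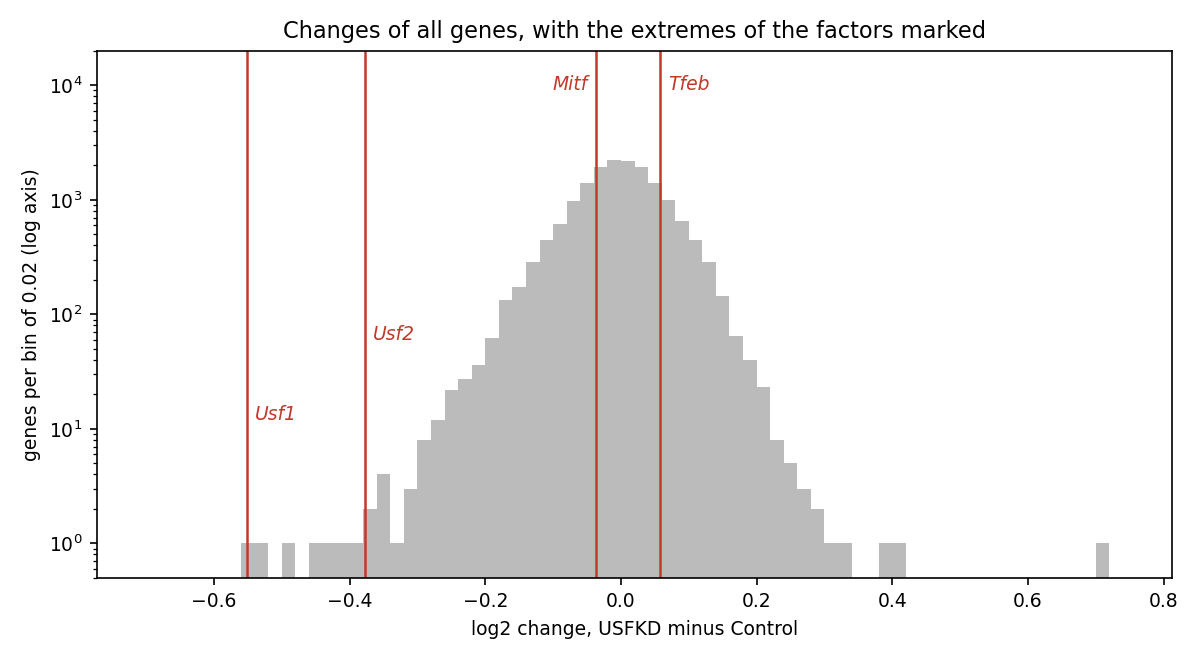
Number of genes (vertical log axis) by log2 change, USFKD minus Control, over 16583 genes, with red lines at both targets and at the lowest and highest of the other 7 factors. Usf1 at -0.55 and Usf2 at -0.38 stand in the lower tail, and the other factors, from -0.04 to 0.06, stand in the bulk.

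Relatives outside the 9 were also on the arrays. Usf3, a gene related to Usf1 and Usf2, had -0.11, -0.18 and -0.03 on USFKD arrays 1, 2 and 3, against 0.03, 0.05 and 0.06 on Control arrays 1, 2 and 3. All USFKD arrays lay below all Control arrays, as for 5.95% of all genes, and USFKD array 2 was the lowest. The change was -0.15 (95% interval -0.27 to -0.04), or 0.900-fold, with an unadjusted limma p of 0.0165 and an adjusted p of 0.996. With 1 array left out it ran from -0.19 to -0.12, at an unadjusted p under 0.05 in 4 of 6 fits. Mlxipl, which encodes ChREBP and was named as the other partner of MLX after its values were seen, had a change of -0.03 (95% interval -0.18 to 0.12). Of 12 other measured E-box-binding bHLH genes, these relatives included, 2 had an unadjusted limma p under 0.05, both lower. Of all genes, 2.65% were lower and 1.6% higher at that threshold. The 2 were Usf3 and the clock gene Clock (-0.12 ± 0.04, SE). With 1 array left out, the number lower ran from 0 (without Control array 3) to 3 (without USFKD array 3). In the fit without USFKD array 2, 1 of the 12 was higher. The median change of the 12 was -0.02. The lowest was Bhlhe40 at -0.24 and the highest Arntl at 0.11, neither at an unadjusted p under 0.05.

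Promoter windows of 250 bases before a transcript start, from the RefSeq tables (GRCm38.p6), were matched for 9 of the 10 listed genes, all but Usf2. The letters searched were CACGTG, an E-box bound by these factors, which reads the same on both strands. It was present in 6.02% of all 32851 windows and in 1 of the 17 windows of these genes, that of Mlx. Of the windows of Mlxipl, 1 held it as well. Both windows are shown because they held these letters, with CACGTG in capitals. E-boxes with other letters and sites outside the windows were not searched, and binding was not measured.
Mlx, chr11:101087040-101087289, plus strand: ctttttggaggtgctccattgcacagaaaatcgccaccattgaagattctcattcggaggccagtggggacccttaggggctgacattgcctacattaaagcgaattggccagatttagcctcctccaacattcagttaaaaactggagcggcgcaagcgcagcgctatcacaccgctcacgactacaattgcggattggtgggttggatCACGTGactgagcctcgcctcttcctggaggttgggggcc
Mlxipl, chr5:135089640-135089889, plus strand: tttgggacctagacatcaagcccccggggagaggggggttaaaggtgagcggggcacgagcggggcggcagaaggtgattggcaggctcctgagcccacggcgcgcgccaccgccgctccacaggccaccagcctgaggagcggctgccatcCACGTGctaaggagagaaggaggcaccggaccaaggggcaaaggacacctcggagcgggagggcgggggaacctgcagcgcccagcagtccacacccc
The first base of CACGTG stood 40 bases before the start of Mlx and 98 bases before that of Mlxipl. In Mlx it lay within the longer palindrome TCACGTGA, which 0.785% of all windows held. The intervals of both changes, -0.01 for Mlx and -0.03 for Mlxipl, included 0. The 2 windows of Usf1 did not hold these letters, which says nothing of sites outside them.

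Genes around these factors were described by role, at an unadjusted p under 0.05, which 1.6% of all genes passed as higher and 2.65% as lower. Among 16 measured regulators of MiT/TFE factors, 1 was higher, the folliculin gene Flcn, needed for mTORC1 to act on TFEB and TFE3 (0.13 ± 0.05, SE), and 1 lower, the GTPase gene Rragb (-0.49 ± 0.10). The other 14 did not pass, and the median was 3.3e-04. Among 28 measured genes listed as MiT/TFE targets, mostly lysosomal and autophagy genes, 5 were higher, 2 lower and 21 did not pass. Mcoln1, Rragd, Flcn and Fnip2 are on both lists, so Flcn is counted again among the 5. The aspartic protease gene Ctsd (0.28 ± 0.04, SE) and the peptidase gene Tpp1 (0.21 ± 0.06) were higher. Hexa, for a hexosaminidase subunit (-0.24 ± 0.05, SE), and Naglu, for a heparan sulfate-degrading enzyme (-0.19 ± 0.05), were lower. All USFKD arrays lay above all Control arrays for 11 of the 28 and below them for 4, beside 4.33% and 5.95% of all genes. The median change of the target list was 0.05, and with 1 array left out it lay between 0.0274 and 0.0545. On USFKD arrays 1, 2 and 3 the median of the list was 0.04, 0.05 and 0.03 above the Control mean. The marker lists of other cell types had median changes of 0.08 (glial), 0.06 (macrophage), 0.05 (endothelial), 0.03 (melanocyte) and 0.02 (fibroblast). On USFKD array 2 these 5 medians lay between 0.09 and 0.25 above the Control mean. Relative to it they ran from -0.04 (melanocyte) to 0.09 (macrophage) on USFKD array 1. On USFKD array 3 they ran from -0.11 (fibroblast) to 0.02 (glial). The part of these marker genes in the result was not tested. Of the target list, 26 of 28 genes were in the brighter class. None of the 28 passed an adjusted p of 0.05 over all genes. The list was drawn up with results on lysosomal genes of these arrays known.

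Among 9 measured genes listed as regulators of SREBP factors, 0 passed in either direction, with changes from -0.08 to 0.06. Among 16 measured cholesterol genes known as SREBP targets, 0 were higher and 1 lower, Hmgcs1, for an early enzyme of the pathway (-0.10 ± 0.04, SE). Among 14 measured fatty acid genes, 0 were higher and 1 lower, the phosphatidate phosphatase gene Lpin1 (-0.14 ± 0.05, SE). The medians of these 2 lists were -0.01 and 0.0085. Among 11 measured genes of the MLX branch, 0 passed, with a median of 0.02, and 1 and 2 were higher without USFKD array 2 or 3. Among 15 measured genes that USF factors are known to bind or drive in other cells, 1 was higher, the heme oxygenase gene Hmox1 (0.32 ± 0.05, SE), and 0 were lower, with a median of 0.02. On USFKD arrays 1, 2 and 3 the median of this list was -0.02, 0.15 and 0.02 relative to the Control mean, so array 2 stood apart. With 1 array left out the median of the changes lay between -0.0055 (without Control array 2) and 0.0754 (without USFKD array 3). With 1 array left out, an unadjusted p under 0.05 was kept in 6 of 6 fits by Ctsd, Tpp1, Hexa, Naglu, Rragb and Hmox1. It was kept in 4 by Lpin1, in 2 each by Flcn and Clock and in 1 by Hmgcs1.

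**Figure D5:**
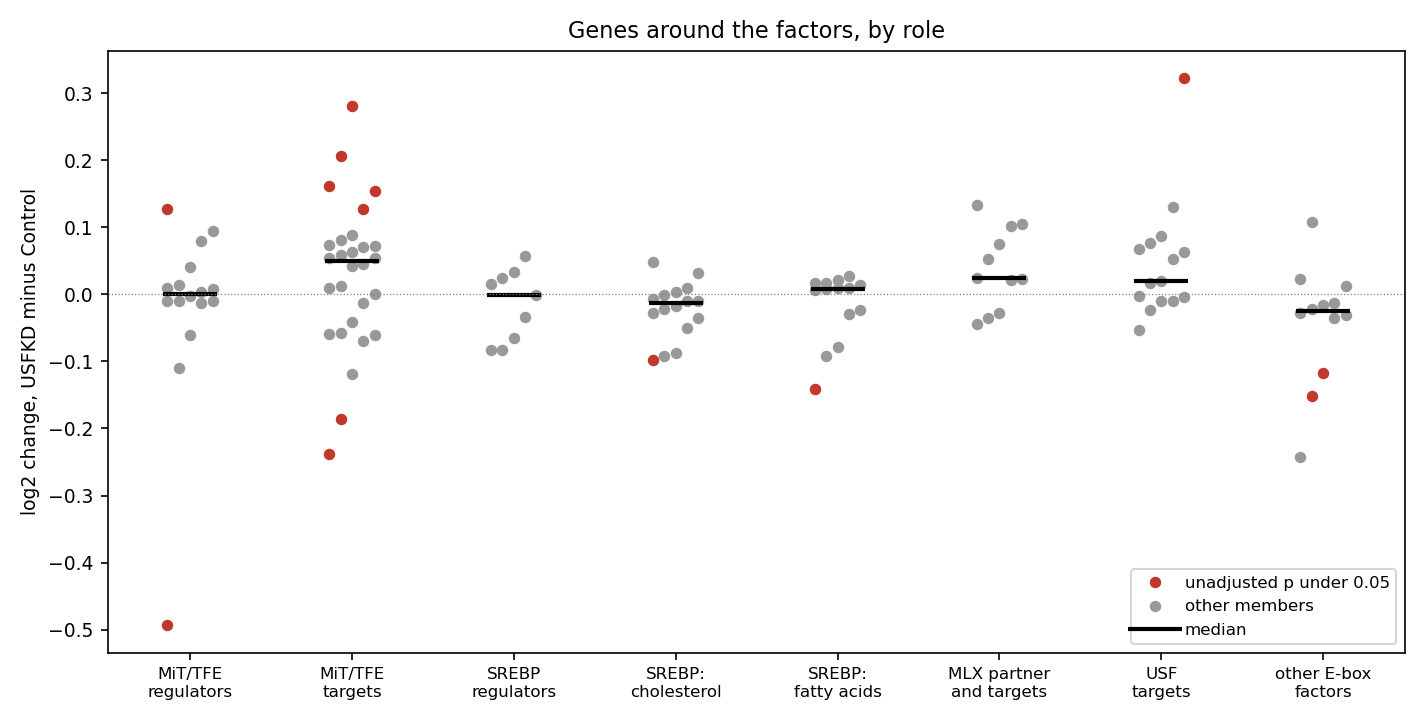
Log2 change (vertical axis), USFKD minus Control, of the measured genes of each list, red at an unadjusted limma p under 0.05, with the list median as a black line. The median is 0.05 for MiT/TFE targets and between -0.02 and 0.02 for the other 7 lists.

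Of 13071 tested genes with a promoter window, 1180 had CACGTG in at least 1 window. At the same unadjusted threshold, 24 of these were higher (2.03%) and 53 lower (4.49%). Of the 11891 genes without it, 192 were higher (1.61%) and 296 lower (2.49%). Within the brighter class the shares that were lower were 5.67% and 3.31%, and within the dimmer class 3.03% and 1.82%, with and without CACGTG. The shares that were higher were 2.61% and 1.35% in the brighter class, and 1.33% and 1.83% in the dimmer class. For the lower shares of the dimmer class the order turned without USFKD array 2 (5.87% with and 6.21% without CACGTG). Without Control array 3 these lower shares were 0.947% and 0.948%. Over both classes without USFKD array 2, 5.17% with and 4.73% without CACGTG were lower, while 3.9% and 2.5% were higher. With all arrays the medians of the changes were -0.0020 and -0.0013. Without Control array 2 or 3, 26 (2.2%) and 27 (2.29%) of the genes with CACGTG were lower, beside 1.53% and 1.12% of the others. In these 2 fits 1.27% and 1.78% of the genes with CACGTG were higher, beside 0.976% and 0.9% of the others. These shares were not tested against each other.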

How the data were processed

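The deposited table gives 22891 transcript clusters on 6 arrays, in log2 units as read here, with each cluster set relative to its own median by the authors. The log2 scale was inferred from the rounding steps of the numbers. RNA was amplified with an Ambion kit and labelled with an Affymetrix kit, per the labels' protocols. How background was corrected and arrays were normalized is not given in the sources used here. Groups and replicate numbers came from the sample titles. Gene names came from the platform annotation, and only the 18087 clusters with 1 symbol were used. Clusters of a gene were averaged, which gave 16583 genes. Values under 0.001 were too coarsely printed to read the brightness class and were left out of that step (tolerance 0.2 of a step).

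All genes were fitted together with lmFit and eBayes of limma 3.58.1 (R 4.3.3), without a block. The p-values were adjusted by Benjamini-Hochberg across the 16583 genes, at a threshold of 0.05. There were 4 residual and 3.79 prior degrees of freedom, and the median standard error was 0.0561. The fit was tested on simulated data. The number of arrays limits the precision. Intervals are unadjusted. Promoter letters were searched with Python 3.11.15. The text names the 9 factors, up to 4 genes per list at an unadjusted p under 0.05, the 3 genes most like each target and genes past the threshold. The factors and lists were chosen with earlier results of these data known. Alternatives were quantile normalization, centring of arrays, robust variance, array weights, the brighter class, 1 cluster per gene, the replicate block and leaving out each array. The numbers were not taken as pairs, because no label says that a number marks a shared culture or day. Same-numbered arrays had correlations of deviations of 0.0031, 0.0819 and 0.0364, which 3 arrays per group leave too uncertain to decide this.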

Additional observations from a re-analysis of the deposited data

How the results depend on the processing

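Over the alternatives, the changes of Usf1 and Usf2 stayed below 0, from -0.62 to -0.49 and from -0.46 to -0.35. Both passed an adjusted p over all genes with array weights alone (Usf1 -0.62, Usf2 -0.46), where USFKD arrays 1, 2 and 3 had weights of 33.0, 0.136 and 0.441. In that fit 1111 genes passed and 4356 were at an unadjusted p under 0.05, against 1 and 705 with equal weights, and Srebf2 was at -0.0323. The USFKD mean in it is in effect that of 1 array. With quantile normalization Tfe3 was at 0.0136 and Srebf2 at -0.0094. Leaving out 1 array turned the sign of Tfe3 (-0.0391 to 0.0327), Mitf (-0.104 to 0.0102), Srebf1 (-0.0354 to 0.0214), Srebf2 (-0.0187 to 0.0226), Mlx (-0.0594 to 0.0089), Mlxip (-0.0337 to 0.0635) and Mlxipl (-0.0977 to 0.0222). Tfeb kept its sign in every alternative that held it. Leaving out 1 array, 0 to 1 genes passed over all genes, 369 to 1248 were at an unadjusted p under 0.05, and 2674 to 3957 had groups that did not overlap, against 1705 with all arrays. The last rise follows from having fewer arrays. Within the brighter class, of 7353 genes, 1031 had groups that did not overlap. There 5.45% were higher and 8.57% lower, beside 4.33% and 5.95% of all genes, so the count fell while the shares rose. Usf1, Tfeb and Mitf have no value in that class. With the replicate block 0 genes passed over all genes and 636 were at an unadjusted p under 0.05. Not every array correlated best with the array of its own number, and with the block the unadjusted p of Flcn was 0.0528 and that of Hmgcs1 0.0793, both above 0.05. The limma call for Dpp7 was lost with the block (adjusted p = 0.193). It was also lost without Control array 1, 2 or 3 (0.326, 0.222 and 0.264) or USFKD array 1 (0.0821), at changes between 0.66 and 0.72. The difference between Usf1 and Usf2 moved by less than 1 SD between arrays from -0.17 in each alternative run. The cause of these moves was not tested.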
